A study of Mus musculus with 6 samples.

Results

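The pericyte markers described here are 7 genes, Rgs5, Rgs4, Cspg4, Mcam, Kcnj8, Abcc9 and Pdgfrb, measured in cells of the Gli1 lineage sorted from adult mouse ovaries. They were taken as every probe set with a single gene symbol that is one of these names, which gave 16 of the 34945 probe sets with 1 symbol. Of the 7 genes, 5 had several probe sets, and Mcam and Kcnj8 had 1 each. All 16 probe sets passed the floor, which was set on the mean log2 signal and stands at a signal of 99.4, with signals from 144 to 16231 over the 6 arrays.

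Pericytes are the contractile and supporting cells that sit on the outside of capillaries, and they share much of their programme with the smooth muscle cells of larger vessels. Endothelial cells attract them by secreting the ligand PDGF-BB, which acts on the receptor encoded by Pdgfrb. In the ovary, the theca layer around each growing follicle carries a dense capillary net, and theca stroma, vascular smooth muscle and pericytes lie within the same layer. No single marker is specific to pericytes, since each of the 7 is also made by some smooth muscle or stromal cells.

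Cells came from female 129S6/SvEvTac mice carrying Gli1-CreERT2 and Rosa-LSL-tdTomato, so that tamoxifen leaves a permanent red label only in cells that express Gli1 at that time. Mesonephros_theca cells were labelled before birth, with tamoxifen begun at E12.5, repeated at E14.5 and ended at E16.5. Ovary_theca cells were labelled after birth, through the milk of a treated mother from P1 to P3. All ovaries were collected at 2 months of age, dissociated and sorted by tdTomato, and each group had 3 samples on 1-colour arrays. The comparison asks how the 2 labelled populations differ in the adult. Place of origin and time of tamoxifen changed together, so their parts cannot be told apart. The samples are numbered, but nothing says whether each was an animal of its own or a pool, so the spread behind each p-value may be only technical.

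The arrays of ovary-derived cells were close to each other (correlations of log2 signal 0.963 to 0.973), and those of mesonephros-derived cells were less so (0.844 to 0.896). Replicate 3 of the mesonephros-derived cells lay nearer to the other group (0.946 to 0.950) than to its own (0.876 to 0.896). Replicates 1 and 2 were no nearer to their own group either. Replicate 1 correlated at 0.844 to 0.876 with its own group and at 0.871 to 0.875 with the other. Replicate 2 correlated at 0.844 to 0.896 and at 0.887 to 0.893. The poly-A tailed control transcripts that are mixed into RNA before amplification (spikes) differed too. Divided by their ovary-derived mean, they read 15.0, 14.2 and 2.43 in the 3 mesonephros-derived arrays and 0.683, 0.832 and 1.76 in the 3 ovary-derived ones, in the order of the replicate numbers. Gapdh, read near its 3′ end and divided by the reading near its 5′ end, gave 5.29, 3.48 and 2.63 against 1.94, 2.39 and 2.86 in the same order. The same ratio for Actb showed no such rise, at 0.887, 0.929 and 0.894 against 0.958, 1.01 and 0.920. Theca steroid genes were present in both groups: all 6 that could be matched passed the floor, among them Cyp17a1, the enzyme that makes androgens, at 7537 ± 3751 against 1112 ± 431 (mean signal ± SD, n = 3 each).

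No pericyte marker passed an adjusted p of 0.05 between the groups. In limma, with Benjamini-Hochberg adjustment over all 27022 probe sets tested, 0 of the 16 passed, where 0.0148% of all probe sets did (4 probe sets, of Myh11, Tagln and Dpep1), and the adjusted p-values of the members ran from 0.250 to 0.980. At an unadjusted p of 0.05 there were 2 of 16, one for Rgs5 and one for Mcam, beside 12.9% of all probe sets tested. The log2 change, mesonephros-derived minus ovary-derived on the scale log2(signal + 16), lay above 0 for 14 of the 16 probe sets, beside 42.0% of all probe sets, with a median of 0.28 against −0.11 over all. The values over all probe sets were not matched to the signal level of the members. Probe sets of a gene are not separate observations, and which transcripts each of them reads was not checked. Taking for each gene the probe set with the highest mean, all 7 lay above 0, also with a median of 0.28. After quantile normalization 5 of the 7 did, with Pdgfrb and Abcc9 below it, and the median was 0.10. With array weights 6 of the 7 did, and 4 of 7 did with the spike level as a covariate, and also on leaving out either mesonephros-derived replicate 2 or ovary-derived replicate 1. Over the 16 probe sets the count above 0 was then 14 with array weights, 12 with the spike covariate and 11 in the other 2 cases and after quantile normalization. The spike level was higher on every mesonephros-derived array than on any ovary-derived one, so that fit can hardly separate it from group. Its errors were also wider, with an SE for Mcam of 0.53, where the main fit had 0.28. Without mesonephros-derived replicate 1, 7 of the 16 reached an unadjusted p of 0.05, where 17.2% of all probe sets did in that fit, and the lowest adjusted p in limma was 0.118, for Rgs4 1448285_at. In bulk samples like these, more pericyte-like cells in a sort and more RNA per cell cannot be told apart.

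**Figure D1:**
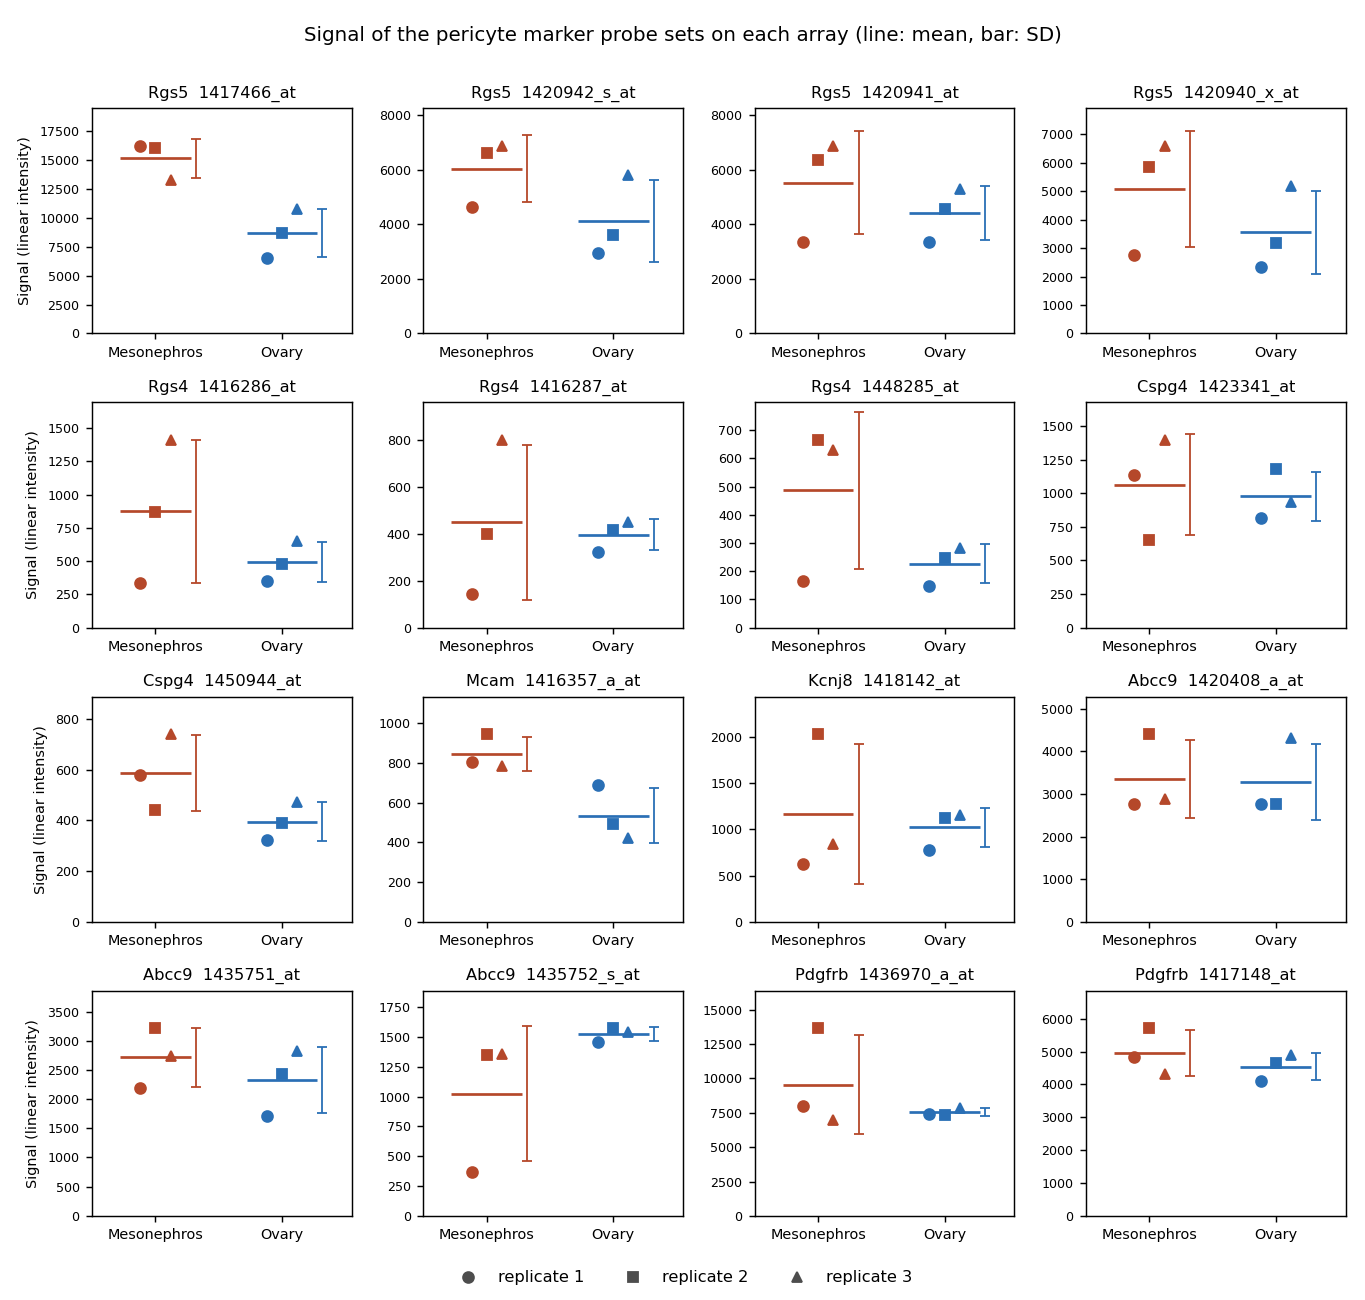
Linear signal of the 16 pericyte marker probe sets on each of the 6 arrays, with 1 panel per probe set, 3 mesonephros-derived arrays in red and 3 ovary-derived arrays in blue. Lines are group means and bars SD. The groups are apart for Rgs5 1417466_at, Mcam and Abcc9 1435752_s_at, and overlap for the other 13 probe sets.

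Rgs5 and Rgs4 encode regulators of G protein signalling, proteins that speed up the switching off of Gq and Gi alpha subunits and so dampen the response to contractile agonists. Rgs5 is among the most used pericyte markers. The Rgs5 probe set with the highest mean, 1417466_at, read 16231, 16044 and 13235 in mesonephros-derived replicates 1, 2 and 3. It read 6565, 8725 and 10781 in the ovary-derived replicates. The 3 mesonephros-derived arrays were all above the 3 ovary-derived ones, which ranged more widely among themselves. The difference was 1.77-fold on the log2(signal + 16) scale (log2 change 0.83 ± 0.21 SE, 95% interval 0.36 to 1.29, limma adjusted p = 0.250). It stood 327th in order of p among all probe sets tested. It was 0.41 after quantile normalization and 0.30 with the spike covariate. Among the ovary-derived arrays its order was that of the spike readings, lowest in replicate 1 and highest in replicate 3, and the part of this in the result was not tested.

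Of the other 3 Rgs5 probe sets, 1420940_x_at, 1420941_at and 1420942_s_at, none separated the groups. On 1420942_s_at the signals were 4636, 6626 and 6881 in mesonephros-derived replicates 1, 2 and 3 and 2958, 3622 and 5823 in the ovary-derived ones (log2 change 0.58 ± 0.27 SE, limma adjusted p = 0.407). On 1420941_at they were 3372, 6345 and 6878 against 3339, 4576 and 5294 (0.29 ± 0.29 SE), and on 1420940_x_at 2772, 5859 and 6589 against 2320, 3180 and 5164 (0.49 ± 0.37 SE). On leaving out 1 array in turn the values ranged from 0.37 to 0.86 for 1420942_s_at, from 0.097 to 0.61 for 1420941_at and from 0.23 to 0.88 for 1420940_x_at. On all 3 of these, mesonephros-derived replicates 2 and 3 were above every ovary-derived array and replicate 1 was not. Replicate 1 lay 0.36 log2 units below the ovary-derived mean on 1420941_at (−0.36) and 0.93 above it on 1417466_at, so the probe sets of this gene read unequally on that array, which had the highest Gapdh and the lowest Actb 3′ to 5′ ratio of the 6. Any link between these values was not tested. The 4 Rgs5 changes spanned 0.54 log2 units, and over the 5936 genes with several tested probe sets the median span was 0.59.

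Rgs4, which acts on the same G proteins, read 337, 872 and 1411 in mesonephros-derived replicates 1, 2 and 3 on 1416286_at. It read 348, 481 and 652 in the ovary-derived replicates. Mesonephros-derived replicate 1 was the lowest of all 6 arrays and replicates 2 and 3 were the highest, so the mean of 874 ± 537 against 494 ± 153 (SD, n = 3 each) rests on a wide spread. The log2 change was 0.63 ± 0.49 (SE, 95% interval −0.48 to 1.74, limma adjusted p = 0.594), and it was 1.19 without mesonephros-derived replicate 1 and 0.18 without replicate 3. On 1448285_at the signals were 165, 665 and 629 against 148, 248 and 282 (0.87 ± 0.55 SE, or 1.5 without mesonephros-derived replicate 1 and 0.54 without replicate 2). On 1416287_at they were 144, 399 and 798 against 322, 414 and 448 (−0.11 ± 0.55 SE), and this value lay on the other side of 0 with array weights (0.40), with the spike covariate (1.33) and without mesonephros-derived replicate 1 (0.51). All 3 Rgs4 probe sets were lower in mesonephros-derived replicate 1 than in replicates 2 and 3.

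Rgs5 and Rgs4 are neighbours, with no other protein-coding gene between them in the RefSeq table (GRCm38.p6), and so are Kcnj8 and Abcc9, which encode partner subunits of 1 channel. The start-site regions of these 4 genes are shown so that the neighbours can be compared. Each runs from 250 bases before to 50 bases after the RefSeq start on the gene's own strand, and capitals mark a match to a searched motif on either strand. The motifs were TATAAA, the RBPJ core TGGGAA used by Notch signalling, the GLI core GACCACCCA of the hedgehog pathway factors, and the CArG box bound by serum response factor. The regions are chr1:169655251-169655550 on the plus strand for Rgs5, chr1:169747593-169747892 on the minus strand for Rgs4, chr6:142571565-142571864 on the minus strand for Kcnj8 and chr6:142702225-142702524 on the minus strand for Abcc9.
Rgs5: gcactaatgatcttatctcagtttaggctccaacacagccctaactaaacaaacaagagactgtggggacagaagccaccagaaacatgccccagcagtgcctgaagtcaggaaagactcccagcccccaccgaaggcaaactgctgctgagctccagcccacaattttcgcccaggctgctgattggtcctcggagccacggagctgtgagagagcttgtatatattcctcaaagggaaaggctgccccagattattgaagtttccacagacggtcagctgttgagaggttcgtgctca
Rgs4: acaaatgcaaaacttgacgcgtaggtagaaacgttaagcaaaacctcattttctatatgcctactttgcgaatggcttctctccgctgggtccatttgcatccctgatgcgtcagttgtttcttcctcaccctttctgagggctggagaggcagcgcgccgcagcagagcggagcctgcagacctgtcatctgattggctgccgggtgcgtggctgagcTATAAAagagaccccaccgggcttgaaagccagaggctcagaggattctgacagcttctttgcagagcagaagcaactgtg
Kcnj8: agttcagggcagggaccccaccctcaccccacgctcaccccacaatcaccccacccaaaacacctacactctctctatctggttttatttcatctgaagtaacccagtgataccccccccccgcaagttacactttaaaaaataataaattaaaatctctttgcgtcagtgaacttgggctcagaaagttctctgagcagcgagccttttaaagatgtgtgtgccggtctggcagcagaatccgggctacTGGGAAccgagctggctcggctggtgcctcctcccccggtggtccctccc
Abcc9: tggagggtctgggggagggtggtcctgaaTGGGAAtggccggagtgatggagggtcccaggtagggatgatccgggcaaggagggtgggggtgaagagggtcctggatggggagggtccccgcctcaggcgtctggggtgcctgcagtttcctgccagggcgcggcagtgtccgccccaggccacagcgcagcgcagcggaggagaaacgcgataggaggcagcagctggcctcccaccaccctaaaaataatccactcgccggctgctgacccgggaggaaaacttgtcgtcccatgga
Rgs4 holds a TATAAA that begins at position −31 from the start, as 13.6% of 32851 promoter windows of this length hold one, and Rgs5 holds none of the 4 motifs. Only the exact letters TATAAA were searched, so variants such as the tatatat in the Rgs5 window were not counted. Kcnj8 and Abcc9 each hold 1 TGGGAA, beginning at positions 1 and −221, which 25.6% of all windows hold. No GLI core or CArG box was found in the windows of the 6 members in the promoter table, where 0.253% and 1.63% of all windows hold one. Each window held at most 1 match.

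Kcnj8 and Abcc9 encode the pore subunit Kir6.1 and the sulfonylurea receptor subunit SUR2 of the vascular ATP-sensitive potassium channel, which relaxes mural cells when it opens. Kcnj8 read 626, 2032 and 847 in mesonephros-derived replicates 1, 2 and 3 on its only probe set, and 780, 1127 and 1154 in the ovary-derived replicates. Mesonephros-derived replicate 2 was the highest of the 6 arrays and replicate 1 the lowest. The log2 change was 0.03 ± 0.41 (SE, 95% interval −0.89 to 0.96, limma adjusted p = 0.980), or −0.46 without mesonephros-derived replicate 2.

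Abcc9 read 2771, 4404 and 2880 against 2771, 2774 and 4318 on 1420408_a_at, its probe set with the highest mean, in replicates 1, 2 and 3 of the mesonephros-derived and ovary-derived cells. One array of each group was high, and the group means were nearly equal (3352 ± 913 against 3288 ± 892, SD, n = 3 each; log2 change 0.03 ± 0.26 SE, 95% interval −0.55 to 0.61). The change was −0.04 after quantile normalization and −0.19 without mesonephros-derived replicate 2. On 1435751_at the signals were 2191, 3214 and 2734 against 1715, 2435 and 2827, with a log2 change of 0.23 ± 0.24 (SE), which ranged from 0.031 without ovary-derived replicate 1 to 0.39 without replicate 3. The third Abcc9 probe set, 1435752_s_at, read 369, 1348 and 1358 in mesonephros-derived cells and 1461, 1573 and 1539 in ovary-derived cells. Every mesonephros-derived array was below every ovary-derived one there, but replicates 2 and 3 by little (−0.17 and −0.16 log2 units from the ovary-derived mean) and replicate 1 by −2.0. The log2 change was −0.78 ± 0.45 (SE, limma adjusted p = 0.486), −0.17 without mesonephros-derived replicate 1, and 0.11 with the spike covariate. The 3 Abcc9 changes spanned 1.01 log2 units, where the median span over the 1575 genes with 3 tested probe sets was 0.71.

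Mcam encodes CD146, a cell adhesion molecule that binds laminin and is carried by pericytes, smooth muscle and endothelial cells. It read 803, 945 and 786 in mesonephros-derived replicates 1, 2 and 3 on its only probe set. It read 688, 490 and 421 in the ovary-derived replicates. The groups did not overlap, and ovary-derived replicate 1 came nearest to the other group. The difference was 1.59-fold (log2 change 0.67 ± 0.28 SE, 95% interval 0.04 to 1.31, limma adjusted p = 0.375). It ranged from 0.52 to 0.87 over the fits that each left out 1 array and stood at 0.75 after quantile normalization and 0.78 with the spike covariate. Among the ovary-derived arrays Mcam ran opposite to Rgs5, highest in replicate 1 and lowest in replicate 3.

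Cspg4 encodes NG2, a large membrane proteoglycan that binds collagen VI and marks pericytes and smooth muscle. On 1423341_at it read 1138, 655 and 1398 in mesonephros-derived replicates 1, 2 and 3 and 818, 1179 and 937 in the ovary-derived replicates. The mesonephros-derived arrays held both the lowest and the highest value, and the log2 change was 0.07 ± 0.32 (SE, 95% interval −0.64 to 0.78, limma adjusted p = 0.936). It was −0.16 without mesonephros-derived replicate 3 and 0.38 without replicate 2. On 1450944_at the signals were 578, 441 and 740 against 320, 390 and 473, with 1 mesonephros-derived array inside the ovary-derived range (log2 change 0.54 ± 0.32 SE, limma adjusted p = 0.495). Replicate 2 was the lowest mesonephros-derived array on both Cspg4 probe sets.

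Pdgfrb, the receptor through which endothelial PDGF-BB recruits pericytes, is also expressed by ovarian stroma and theca cells. On 1436970_a_at it read 7971, 13658 and 7005 in mesonephros-derived replicates 1, 2 and 3. In the ovary-derived replicates it read 7398, 7357 and 7862. Only replicate 2 of the mesonephros-derived cells stood clear of the ovary-derived arrays, and replicate 3 was below them all. The log2 change was 0.28 ± 0.24 (SE, 95% interval −0.27 to 0.83, limma adjusted p = 0.633), −0.01 without mesonephros-derived replicate 2 and −0.07 after quantile normalization. On 1417148_at the signals were 4828, 5713 and 4328 against 4105, 4641 and 4886, with a log2 change of 0.12 ± 0.18 (SE), or 0.012 without mesonephros-derived replicate 2 and −0.04 after quantile normalization. Its 95% interval of −0.28 to 0.52 was the narrowest among the 16 probe sets.

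**Figure D2:**
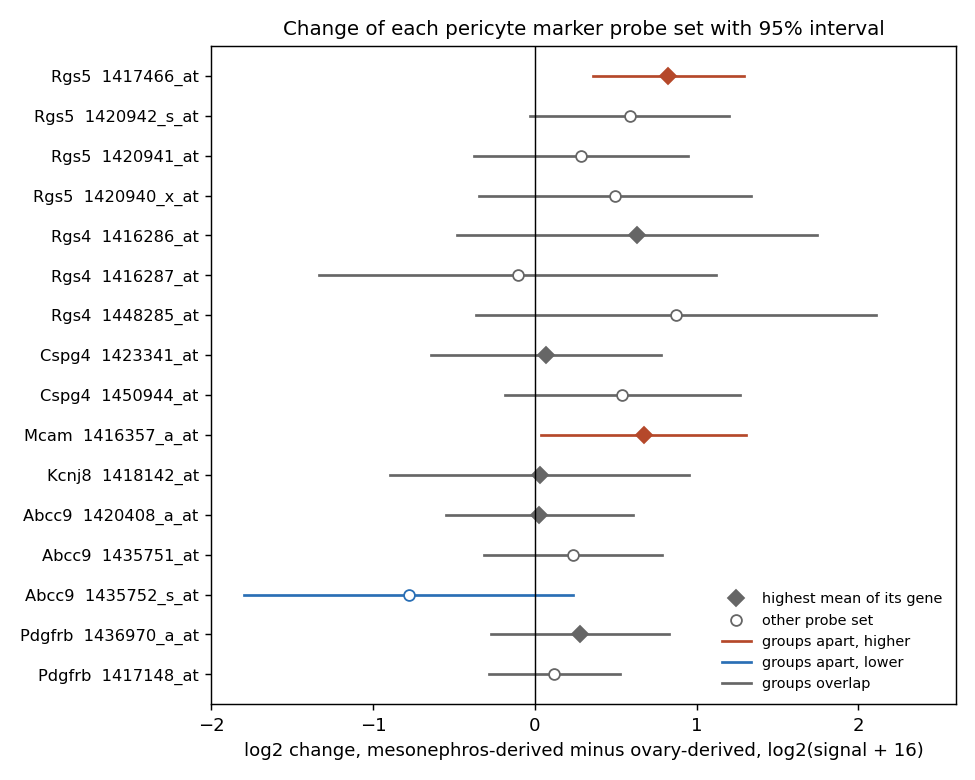
Log2 change of each of the 16 probe sets, mesonephros-derived minus ovary-derived, with its 95% interval from limma, in log2 units. Filled diamonds mark the probe set with the highest mean of each gene. Intervals lie wholly above 0 for Rgs5 1417466_at and for Mcam and reach across 0 for the other 14, and quantile normalization put both Pdgfrb values and that of Abcc9 1420408_a_at below 0.

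The groups were apart with mesonephros-derived cells higher for 2 of the 16 probe sets, beside 8.82% of all probe sets tested, and with either group higher for 3 of 16, beside 21.3%. Rgs5 1417466_at and Mcam were the higher pair, and Abcc9 1435752_s_at was lower. The SD of log2 signal was larger between mesonephros-derived than between ovary-derived arrays for 12 of the 16, as for 82.5% of all probe sets tested. Its median over the members was 0.53 between mesonephros-derived and 0.35 between ovary-derived arrays, where all probe sets had medians of 0.52 and 0.23. Rgs5 1417466_at and Mcam went the other way, with SDs of 0.17 and 0.14 between mesonephros-derived arrays and 0.36 and 0.35 between ovary-derived ones.

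The members did not share 1 pattern over the arrays. In mesonephros-derived replicate 1 the values were lowest of the group for 10 of 16 probe sets, beside 43.6% of all probe sets tested. They were the highest of the group in replicate 2 for 7, and the share over all probe sets was not taken for this count. Rgs4 was low in replicate 1 only, Kcnj8 and Pdgfrb were high in replicate 2 only, and Cspg4 was low in replicate 2. Within the ovary-derived cells, 14 of 16 probe sets were lowest in replicate 1 and 13 were highest in replicate 3, where 40.6% and 38.8% of all probe sets tested were. The poly-A spikes had the same order among these 3 arrays, and their part in it was not tested.

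**Figure D3:**
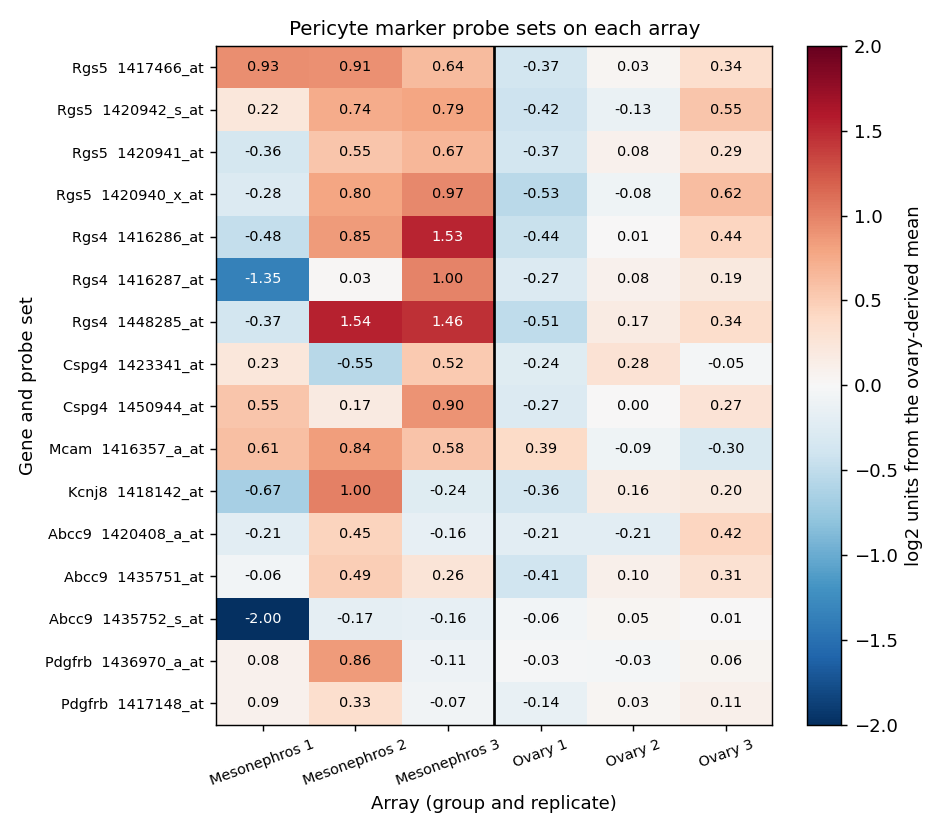
Log2 units of each probe set (rows) on each array (columns) from the mean of the 3 ovary-derived arrays, in red above and in blue below that mean. Rgs5 1417466_at and Mcam are above it on all 3 mesonephros-derived arrays, while the Rgs4 probe sets are below it in mesonephros-derived replicate 1 (−0.48, −1.35 and −0.37) and above it in replicates 2 and 3.

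Likeness between profiles was measured as the root mean square difference in log2 units over the 6 arrays, after each profile was centred on its own mean. This difference also grows with the spread of a profile. The SD of the profile was lowest for Abcc9 (0.30) and Pdgfrb (0.33) and highest for Rgs4 (0.72). The order of these distances therefore does not rank shape alone. Among the 7 members the closest pair was Abcc9 and Pdgfrb (0.24), followed by Kcnj8 and Pdgfrb (0.34) and Kcnj8 and Abcc9 (0.35), and the farthest was Cspg4 and Kcnj8 (0.81). Rgs5 and Rgs4 stood 0.68 apart. The members were also set against every probe set past the floor with 1 gene symbol, so other probe sets of a gene found may differ. With only 6 arrays and this many probe sets, near profiles can arise by chance. The profiles most like Rgs5 were those of Pbxip1 (0.058), Zeb2 (0.060) and Bzw2 (0.077). The nearest to Rgs4 were Cald1 (0.16), Sntb1 (0.17) and Arrdc4 (0.18), and to Cspg4 they were Csnk1a1 (0.098), 4933427D14Rik (0.098) and Sfrp1 (0.10). Mcam was closest to Cmss1 (0.11), Rabep1 (0.12) and Cacnb4 (0.12), and Kcnj8 to Acad12 (0.086), Pla2g15 (0.091) and Meis3 (0.095). Abcc9 was closest to Ralgapa1 (0.053), Mybl2 (0.073) and Slc30a7 (0.086), and Pdgfrb to Zfp691 (0.064), Josd2 (0.065) and Cep83 (0.066). No member was among the nearest 3 of another.

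Of the PDGF ligands and the partner receptor, 4 were tested. Of these, 2 lay above and 2 below 0, and 0 passed the threshold. Pdgfa, a ligand of the alpha receptor, read 586 ± 68.7 against 397 ± 86.0 (SD, n = 3 each; log2 change 0.56 ± 0.30 SE, limma adjusted p = 0.452). Pdgfc stood at 0.20 ± 0.28 (0.077 without mesonephros-derived replicate 3) and Pdgfd, which binds the beta receptor, at −0.36 ± 0.45 (−0.037 without ovary-derived replicate 3). The receptor Pdgfra, a marker of stromal fibroblasts, stood at −0.02 ± 0.17 and at 0.06 after median centring, which also left 3 of the 4 list members above 0. Pdgfb, the endothelial ligand that recruits pericytes, was under the floor in its mean log2 signal and was not tested. Its linear means, 123 ± 36.3 against 109 ± 102, lay above 99.4, with 1 of 3 mesonephros-derived and 2 of 3 ovary-derived arrays below it. Of the angiopoietin and Tie genes, through which pericytes steady the endothelium, 3 were tested and 0 passed: Angpt2, the antagonist ligand, at −0.56 ± 0.26, the receptor Tek at −0.56 ± 0.69 (0.26 without mesonephros-derived replicate 1) and Angpt1, the pericyte-made agonist, at 0.11 ± 0.30 (−0.03 without mesonephros-derived replicate 3).

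Other RGS genes went both ways. Of 10 tested, 4 lay above and 6 below 0 and 0 passed (median −0.03, or 0.03 after quantile normalization with 6 above). Rgs3, another regulator of Gq and Gi, read 731 ± 228 against 1488 ± 93.4 (SD, n = 3 each; log2 change −1.06 ± 0.28 SE, limma adjusted p = 0.258), without overlap. Rgs1, a regulator known from lymphocytes, read 61.8 ± 87.5 against 312 ± 95.2 (−2.64 ± 0.74 SE), with 2 of 3 mesonephros-derived arrays below the floor. Rgs2, which acts mainly on Gq and limits vascular contraction, read 10969, 5514 and 6439 in mesonephros-derived replicates 1, 2 and 3 against 3754, 4281 and 4832, also without overlap (0.77 ± 0.26 SE, limma adjusted p = 0.309). Among the 6 G protein alpha subunits on which these proteins act, 5 lay above 0 and 0 passed, with a median of 0.21. Gnao1 stood at 0.86 ± 0.35, Gnai2 at 0.27 ± 0.17 and Gnai3 at −0.21 ± 0.19.

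The other pair of ATP-sensitive potassium channel subunits is Kcnj11 (Kir6.2) and Abcc8 (SUR1), best known from the pancreatic beta cell. Their log2 changes were larger than those of Kcnj8 and of the Abcc9 probe set with the highest mean. Abcc9 1435752_s_at, at −0.78, was farther from 0 than Kcnj11. Neither Kcnj11 nor Abcc8 passed. Kcnj11 read 590, 550 and 422 in mesonephros-derived replicates 1, 2 and 3 against 312, 345 and 365 (log2 change 0.58 ± 0.30 SE, limma adjusted p = 0.442). Abcc8 read 230, 282 and 202 against 109, 99.1 and 107, with 1 ovary-derived array below the floor and the other two close to it (1.06 ± 0.39 SE, limma adjusted p = 0.342). Both had all mesonephros-derived arrays higher, as 8.82% of all probe sets tested did, and Kcnj11 stood at 0.10 with the spike covariate. The difference between the 2 pairs was not tested.

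Partners of the surface members were mixed. Of 6 tested Cspg4 partners, 3 lay above 0 and 0 passed: Col6a1, a chain of collagen VI, stood at 0.47 ± 0.24 log2 units (SE), Col6a2 at 0.24 ± 0.21 and the integrin subunit Itgb1 at −0.43 ± 0.22 (0.041 with the spike covariate). Col6a1 moved to 0.08 and Col6a2 to −0.12 after quantile normalization. Of 4 tested Mcam ligands, 2 lay above 0 and 0 passed. Wnt5a, a secreted Wnt ligand that binds Mcam, read 462, 886 and 1514 in mesonephros-derived replicates 1, 2 and 3 against 2307, 3029 and 2595 (log2 change −1.60 ± 0.38 SE, limma adjusted p = 0.226), with all mesonephros-derived arrays lower. The laminin chain Lamc1 stood at 0.48 ± 0.40, or −0.07 without mesonephros-derived replicate 1, and Lama4 at −0.06 ± 0.20, or 0.01 after median centring. After quantile normalization 2 of the 6 Cspg4 partners and 1 of the 4 Mcam ligands lay above 0.

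A wider list of 24 mural and pericyte genes had 20 tested members. Of these 7 lay above and 13 below 0 with a median of −0.35, and 0 passed the threshold. The median was 0.01 without mesonephros-derived replicate 1 and 0.16 with the spike covariate. Aoc3, a vascular amine oxidase of smooth muscle and pericytes, read 5178, 3751 and 3502 in mesonephros-derived replicates 1, 2 and 3 against 1811, 1875 and 1771 (log2 change 1.16 ± 0.20 SE, limma adjusted p = 0.136), without overlap. Enpep, the aminopeptidase that cleaves angiotensin II, read 3147 ± 1346 against 6048 ± 1361 (SD, n = 3 each; −1.0 ± 0.31 SE, limma adjusted p = 0.290). P2ry14, a receptor for UDP-glucose, read 165 ± 127 against 468 ± 84.6 (−1.65 ± 0.52 SE), with 1 of 3 mesonephros-derived arrays below the floor. Notch3, the mural Notch receptor, read 1712 ± 365 against 1234 ± 373 (0.49 ± 0.28 SE). Tbx18 and Zic1, transcription factors of brain and heart mural cells, were below the floor on all 6 arrays.

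**Figure D4:**
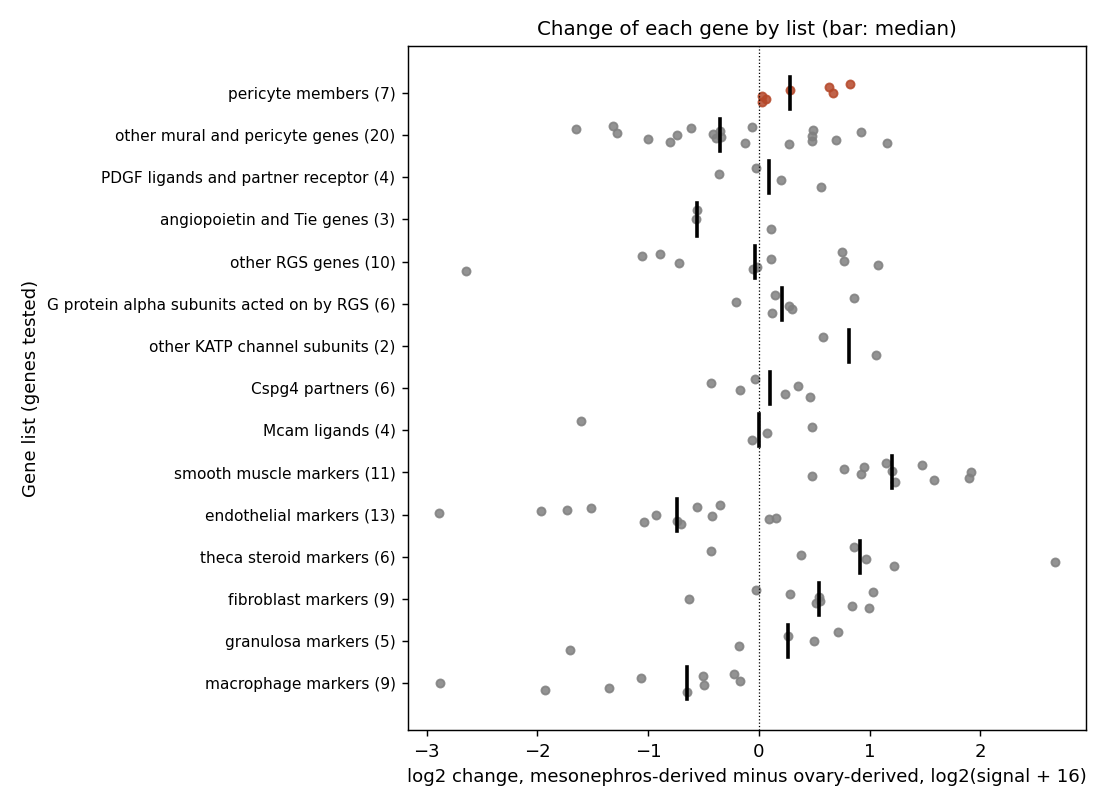
Log2 change, mesonephros-derived minus ovary-derived, of the probe set with the highest mean of each tested gene (points), by gene list with at least 2 tested genes, with the median of the list as a bar. The pericyte markers (red) lie from 0.03 to 0.83 with a median of 0.28 (0.10 after quantile normalization, with Pdgfrb and Abcc9 below 0). Their median lies between those of the smooth muscle markers at 1.20 and the wider mural and pericyte list at −0.35. After quantile normalization these 2 medians were 1.02 and −0.25.

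Markers of neighbouring cell types are given beside these values. All 11 smooth muscle markers lay above 0, with a median of 1.20 (1.02 after quantile normalization and 1.06 with the spike covariate). Of these, 2 passed the threshold, where 0.0148% of all probe sets did. Myh11, the smooth muscle myosin, read 11879 ± 964 against 3158 ± 504 (SD, n = 3 each; log2 change 1.92 ± 0.18 SE, limma adjusted p = 0.0261), Tagln passed at 1.48 ± 0.16 (adjusted p = 0.0475), and Acta2, the smooth muscle actin, stood at 1.23 ± 0.19. Acta2 moved to 0.60 after quantile normalization and to 0.63 with the spike covariate. Over the 18 alternatives the Myh11 call was lost in 8 and the Tagln call in 11. Both were lost on leaving out any single array other than mesonephros-derived replicate 1, with limma adjusted p-values from 0.0651 to 0.272 for Myh11 and from 0.0651 to 0.440 for Tagln. Both were also lost with the spike covariate, which can hardly be separated from group and left no probe set called. Set against the mean of the ovary-derived arrays in log2 units, the smooth muscle list averaged 1.01, 1.44 and 1.25 on the 3 mesonephros-derived arrays and the 7 pericyte markers averaged 0.069, 0.62 and 0.39. The summed signal of the smooth muscle markers ranged from 84467 to 103582 in mesonephros-derived and from 36915 to 40877 in ovary-derived arrays. Of 13 tested endothelial markers 11 lay below 0, with a median of −0.74 (−1.37 without mesonephros-derived replicate 2) and 0 past the threshold. Their mean deviation was −1.71, 0.02 and −1.21 in mesonephros-derived replicates 1, 2 and 3. Replicate 2 thus had the most endothelial signal of its group. The average of the 7 pericyte markers was also highest there, but this did not hold for each marker. Of the 16 pericyte marker probe sets, 7 were highest of the group in replicate 2, and both Cspg4 probe sets were lowest there. The summed endothelial signal ranged from 5299 to 12167 in mesonephros-derived and from 8665 to 12896 in ovary-derived arrays. Pecam1, the endothelial adhesion molecule, was below the floor in 2 mesonephros-derived arrays. Macrophage markers followed a similar order, with mean deviations of −2.92, 0.61 and −0.78, 0 of 9 tested above 0 and 0 past the threshold, while 5 of 9 lay above 0 without mesonephros-derived replicate 1. The summed macrophage signal ranged from 732 to 9119 in mesonephros-derived and from 4667 to 6981 in ovary-derived arrays, with Cd14 below the floor on every array. The part of these cell types in the pericyte marker values was not tested.

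Of 6 tested theca steroid genes 5 lay above 0, with a median of 0.91, of 9 fibroblast markers 7, with a median of 0.54, and of 5 granulosa markers 3, with a median of 0.26, and 0 passed in any of these lists. The fibroblast median was 0.03 after quantile normalization, and the granulosa median was −0.034 without mesonephros-derived replicate 2 and −0.071 with the spike covariate, with 2 of 5 above 0 in either case. No surface epithelial marker of 7 was past the floor. Only 1 of 7 oocyte markers and 1 of 2 matched erythroid markers were tested, and neither passed.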

How the data were processed

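RNA of 6 sorted samples, 3 per group, was measured on oligonucleotide arrays of 1 colour. Each amplification started from the same volume of RNA, not the same amount, per the labels' protocols. What the authors deposited is 1 intensity per probe set on a linear scale. MAS5 is the tool in the submitters' processing notes. It gives 1 background-corrected signal per probe set, with version and settings not given in the sources used here. Each array had a signal whose mean, with the outer 2% trimmed on both sides, stood at 500.0, so they came scaled to each other and were used as they stood.

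Of 45101 probe sets, 64 controls were left out. Signals were moved to log2(signal + 16), on which the change of dim genes is understated, and probe sets whose mean lay under the 40th percentile were not tested, leaving 27022. Group was the single factor of a limma fit (version 3.58.1, R 4.3.3; lmFit and eBayes with an intensity trend) with 1 row per probe set, and p-values were adjusted by Benjamini-Hochberg and called at 0.05. The fit was tested on simulated data, with equal noise in both groups and changes larger than those of any member. That test does not show how the fit performs on groups of unequal spread or on small changes. Probe sets were named from the platform annotation. The number of arrays limits the precision.

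The members and lists were chosen with earlier results of these data known. Every member probe set was named, with up to 3 genes of smallest p in each partner list, a fixed set of reference genes, and the 3 genes of nearest profile to each member. Alternatives were pseudocounts of 1 and 64, no floor or one at the 60th percentile, median centring, quantile normalization, 1 probe set per gene, eBayes with robust fitting or with no trend, array weights, the mean log2 signal of 24 poly-A spike probe sets as a covariate, blocking on replicate number, and each array left out in turn. List genes were also followed under some of these, chosen after seeing the data.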

Additional observations from a re-analysis of the deposited data

How the results depend on the processing

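No member probe set passed the threshold under any of the 18 alternatives run (limma; 17 for a probe set that is not the brightest of its gene), whose smallest member adjusted p was 0.107, for Rgs5 1417466_at without mesonephros-derived replicate 3. The median change of the 7 genes stayed between 0.10 and 0.38. The count of all probe sets called was 4, and 2 with a pseudocount of 1, no floor or median centring, 7 with a pseudocount of 64, quantile normalization or the replicate block, 8 with a floor at the 60th percentile, 1 without the trend, 252 with array weights and 0 with the spike covariate. Leaving out 1 array gave 0 to 104, the latter without mesonephros-derived replicate 1. Nothing says whether same-numbered samples were paired. The deviations of same-numbered arrays correlated at 0.02, 0.058 and −0.007, which cannot show how the samples were collected. The block called 7 probe sets and 0 members.

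Values on the other side of 0, with the cause not tested, were these. After quantile normalization, Abcc9 1420408_a_at stood at −0.044, Pdgfrb 1436970_a_at at −0.068 and 1417148_at at −0.037. With array weights, Rgs4 1416287_at stood at 0.40 and Kcnj8 at −0.080. With the spike covariate, which moved the median of all probe sets from −0.11 to 0.01, Rgs4 1416287_at stood at 1.33, Kcnj8 at −0.49, Abcc9 1420408_a_at at −0.50 and 1435752_s_at at 0.11, and Pdgfrb at −0.29 and −0.22. The spike level did not overlap between the groups, so these values can hardly separate it from group. Leaving out 1 array gave ranges of −0.66 to 0.51 for Rgs4 1416287_at, −0.16 to 0.38 for Cspg4 1423341_at, −0.46 to 0.38 for Kcnj8, −0.19 to 0.24 for Abcc9 1420408_a_at and −0.012 to 0.47 for Pdgfrb 1436970_a_at.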
